A study of Mus musculus with 9 samples.

Results

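Oxidative phosphorylation genes were followed in the back skin of 9 C57BL/6 male mice, aged 6 to 8 weeks, with dermatitis raised by 2,4-dinitrochlorobenzene (DNCB). They were the genes that the deposited expression table annotates with the KEGG pathway of that name, together with all protein genes of mitochondrial DNA. This gave 128 genes of 55401 in the count table, 13 mitochondrial and 115 nuclear. All mice of both groups had their backs shaved and were sensitized on day 1 with 200 µL of 1% DNCB. They were then challenged with 100 µL of 0.5% DNCB from day 4 to day 21. The 5 FJDHF mice were given Fangji Dihuang formulation, a herbal decoction, by mouth every day after day 7, and the 4 Model mice were given water until day 28. No unpainted or healthy skin was analysed here, so the values compare treated with untreated dermatitis only.

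Oxidative phosphorylation is the route by which mitochondria turn the energy of nutrients into ATP. Complexes I and II pass electrons to ubiquinone, complex III passes them on to cytochrome c, and complex IV hands them to oxygen. The protons that complexes I, III and IV pump across the inner membrane drive complex V, the ATP synthase. The subunits come from both genomes, except that complex II is made from nuclear genes alone, and muscle and brown fat are known for dense mitochondria. The KEGG pathway also lists the vacuolar ATPase (V-ATPase), a proton pump of lysosomes and plasma membranes that spends ATP.

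The 128 genes fell into classes by their symbols. Of the mitochondrial genes, 7 encode subunits of complex I, 1 of complex III, 3 of complex IV and 2 of complex V. Of the nuclear genes, 39 belonged to complex I, 4 to complex II, 9 to complex III, 17 to complex IV and 15 to complex V, which makes 84 nuclear subunits. A further 22 were V-ATPase genes, 4 were assembly genes of complex IV, 3 were pyrophosphatases and 2 were proton-potassium ATPases. The V-ATPase and proton-potassium ATPase genes do not encode parts of the respiratory chain and were kept apart from the 84 subunits throughout.

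Total counts lay between 74648669 and 79474215 per library. The column codes MXL1, MXL12, MXL3_4 and MXL_3 were read as Model, and MR1, MR3, MR3_4, MR4_5 and MR5 as FJDHF. This reading rests on there being 4 and 5 such columns and on MX abbreviating the Chinese for model, and it does not tie a code to a mouse. Some codes carry more than 1 number and might mark pooled RNA, so each n counts libraries. Levels are given as CPM, the count of a gene scaled by the total count of its library, or as FPKM, which is also per length, where genes are compared with each other. All 8 basal and all 8 differentiated keratinocyte markers were above 3 counts in at least 1 library. The markers found for every other cell type passed this low bar too, so it does not check the label of skin. Markers of skeletal muscle differed between libraries far more than between groups, as given beside the results that they move with.

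Copies of mitochondrial genes in the nuclear genome set a limit on every mitochondrial value. A stretch of chromosome 1 carries 7 annotated pseudogenes of mitochondrial genes. Reads from stretches where a gene and its copy are identical cannot be told apart. Over the whole length of the annotated copy, Gm10925 was 100% identical to mt-Atp6 (678 bases), Gm28661 to mt-Co2 (681 bases) and Gm28437 to mt-Co3 (783 bases). Gm10222 was likewise 100% identical to mt-Nd4l (294 bases) and Gm28439 to the first 876 bases of mt-Nd4. Gm28438 differed from mt-Nd3 by 1 of 345 bases, T3C counted from the first base of the gene. The opening 60 bases of this pair are shown because they hold the one difference, which is in capitals.
mt-Nd3, GRCm38 chrMT:9459-9518, plus strand: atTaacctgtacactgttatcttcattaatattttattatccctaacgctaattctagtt
Gm28438, GRCm38 chr1:24613060-24613119, minus strand: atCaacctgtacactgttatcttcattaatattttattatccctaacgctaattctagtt

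The copies held nearly as many counts as the genes themselves. Gm28661 had 98.4% to 98.8% of the counts of mt-Co2 in each of the 9 libraries, Gm28437 had 98.6% to 99.4% of those of mt-Co3 and Gm10925 had 105% to 106% of those of mt-Atp6. Gm28439, a copy of part of mt-Nd4, had 39.9% to 42.8%, and Gm29216, which shares 28.7% of the 50-base words of mt-Co1, had 3.92% to 5.34%. Outside chromosome 1, Gm13341 on chromosome 2 shared 35.3% of the words of mt-Co2 and Gm13340 on chromosome 2 shared 27.5% of those of mt-Co1. No copy on chromosome 1 was found for mt-Nd1, mt-Nd2, mt-Nd5, mt-Nd6, mt-Cytb or mt-Atp8. Elsewhere mt-Nd2 shared words with 1 gene outside the pathway and mt-Nd5 with 2, while mt-Nd1, mt-Nd6, mt-Cytb and mt-Atp8 had 0 such copies. The 7 copies together took 1.39% (MR4_5) to 2.41% (MR3_4) of all counts. Whether the authors' counting gave reads of shared stretches to both places or divided them is not known. The levels of mt-Co2, mt-Co3, mt-Atp6, mt-Nd3, mt-Nd4l and mt-Nd4 therefore carry this uncertainty. Those of mt-Co1, mt-Nd2 and mt-Nd5 carry it for the words that they share. The share of each copy varied little between libraries, as the ranges above show.

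Another shared stretch lies within mitochondrial DNA. The genes for the ATP synthase subunits mt-Atp8 and mt-Atp6 overlap by 43 bases on the same strand, so a read from there belongs to both. The 91 bases around it are shown because the levels of these genes are compared below, with the shared bases in capitals.
mt-Atp8 to mt-Atp6, GRCm38 chrMT:7903-7993, plus strand: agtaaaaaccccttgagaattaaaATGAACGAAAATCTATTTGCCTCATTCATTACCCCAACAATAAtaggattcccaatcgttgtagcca
mt-Nd4l and mt-Nd4 share 7 bases, and mt-Nd5 and mt-Nd6 share 14 on opposite strands. Of all 128 members, mitochondrial genes included, 45 overlapped an exon of a gene outside the pathway. Of 114 nuclear members with a transcript sequence, 43 shared at least 1 word of 50 bases with such a gene, and 1, the ATP synthase subunit gene Atp5l, shared more than 50% of its words with 1 copy (52.5%, with Gm10221).

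The 13 mitochondrial genes made up 5.35% to 8.98% of all counts. In the Model group their share was 5.76% in MXL1, 6.23% in MXL12, 6.61% in MXL3_4 and 8.98% in MXL_3, with a mean of 6.89% ± 1.43 (SD, n = 4). In the FJDHF group it was 6.66% in MR1, 5.62% in MR3, 8.61% in MR3_4, 5.35% in MR4_5 and 6.38% in MR5, with a mean of 6.52% ± 1.28 (SD, n = 5). One library of each group, MXL_3 and MR3_4, stood above all others, the remaining 7 lay within a narrow band, and the groups overlapped. With the copies on chromosome 1 added, the means were 8.75% ± 1.75 (SD, n = 4) and 8.32% ± 1.70 (SD, n = 5). The 84 nuclear subunits took far less, 0.456% (MXL12) to 0.648% (MXL_3) of all counts. Their mean share was 0.537% ± 0.0823 (SD, n = 4) in the Model group and 0.514% ± 0.0429 (SD, n = 5) in the FJDHF group.

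**Figure D1:**
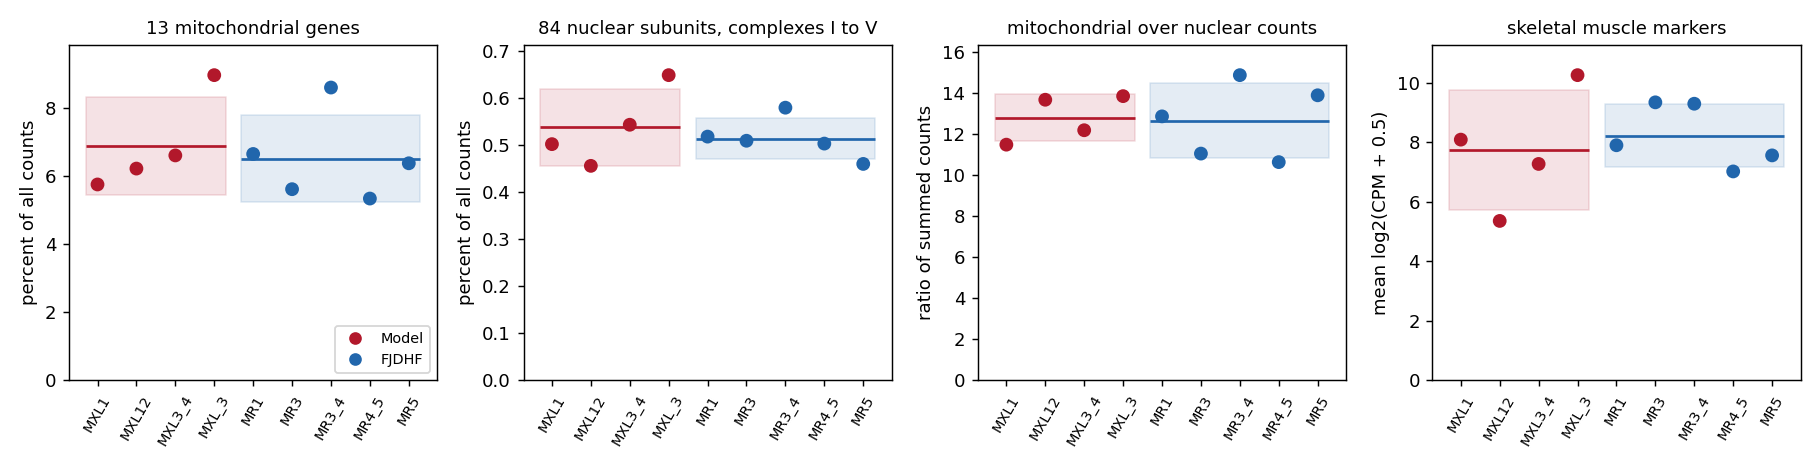
Each point is 1 library, with Model in red and FJDHF in blue, and lines and bands give the group mean ± SD (n = 4 and n = 5). The panels show the percent of all counts from the 13 mitochondrial genes, the percent from the 84 nuclear subunits, the ratio of these 2 sums and the mean log2(CPM + 0.5) of 15 skeletal muscle markers. The groups overlap in every panel, and MXL_3 and MR3_4 are the highest libraries in the first 2.

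The balance of the 2 genomes was much alike in the 2 groups. Mitochondrial counts were 11.5 times the nuclear subunit counts in MXL1, 13.7 times in MXL12, 12.2 times in MXL3_4 and 13.8 times in MXL_3. In the FJDHF libraries the ratio was 12.9 in MR1, 11.0 in MR3, 14.9 in MR3_4, 10.6 in MR4_5 and 13.9 in MR5. The means were 12.8 ± 1.15 (SD, n = 4) and 12.7 ± 1.81 (SD, n = 5), and the FJDHF libraries reached both below and above all Model libraries. The difference of the mean log2 ratios was -0.023, well inside the pooled SD of 0.179, and its sign turned when MR3, MR4_5, MXL12 or MXL_3 was left out (0.023, 0.037, 0.010 and 0.016). Per length, in summed FPKM, the ratio lay between 24.6 (MR3) and 33.0 (MR5).

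Levels of single mitochondrial genes were compared in FPKM, which scales them by length. mt-Co1, the catalytic subunit of complex IV, had the highest mean over the 9 libraries (14706 FPKM, range 12620 to 19622), followed by mt-Atp8 (10749, range 8453 to 13473). Next came mt-Atp6 (7507), the cytochrome b gene mt-Cytb (6908), mt-Co3 (5802) and mt-Co2 (5392). The ranges of mt-Co1 and mt-Atp8 overlapped, and so did those of each of the next neighbours in this order. The places of mt-Atp6, mt-Co3 and mt-Co2 in this order are uncertain, since their copies on chromosome 1 hold about as many counts as they do, while mt-Cytb has no copy there. The place of mt-Atp8 is uncertain too, since its 204 bases are fewer than the fragment size that the paper states for its libraries. Scaling by length may not hold for so short a gene, and mt-Nd4l (297 bases) and mt-Nd3 (348 bases) are about as long as such a fragment. The complex I genes were lower as deposited, from mt-Nd1 (4174) through mt-Nd4 (3299), mt-Nd2 (3257), mt-Nd4l (2305), mt-Nd5 (2074) and mt-Nd6 (1604) to mt-Nd3 (438). The range of mt-Nd3 (273 to 704 FPKM) did not reach the lowest value of mt-Nd6 (1237) as deposited. The places of mt-Nd3, mt-Nd4l and mt-Nd4 are uncertain too, since each has a copy on chromosome 1. mt-Nd6 is the one protein gene on the other strand, and its FPKM was 0.683 (MXL3_4) to 0.854 (MR3_4) of that of mt-Nd5. Whether strand was used in counting is not known, so the level of mt-Nd6 may include reads from the opposite strand.

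The mitochondrial genes largely moved as a block from library to library. MXL_3 held the highest CPM of 9 of the 13 genes, among them all 7 complex I genes, mt-Cytb and mt-Co1. MR3_4 held the highest of the other 4, mt-Co2, mt-Co3, mt-Atp6 and mt-Atp8, and MR4_5 held the lowest of 9. As a share of summed mitochondrial FPKM, the highest library was 1.16 (mt-Nd4) to 1.58 (mt-Nd3) times the lowest. The complex IV pair mt-Co3 and mt-Co1 showed such a shift within the block, with a FPKM ratio from 0.315 in MR3 to 0.464 in MR1. mt-Nd3 had 130 CPM in MXL1, 155 in MXL12, 167 in MXL3_4 and 261 in MXL_3, against 178 in MR1, 104 in MR3, 219 in MR3_4, 99.9 in MR4_5 and 132 in MR5. MXL_3 was the highest and MR4_5 the lowest of the 9 for this gene, and the groups overlapped.

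No oxidative phosphorylation gene passed the study's criterion of an adjusted p under 0.05 with at least a 2-fold change. Of all 20817 genes tested with edgeR's quasi-likelihood test, 0 passed (0%), against 0 of the 127 members tested. DESeq2's Wald test called 12 of 34637 genes at an adjusted p under 0.05 (0.0346%), with 0 members among them, and limma called 0. At an unadjusted p under 0.05, DESeq2 called 651 (1.88%) and limma 387 (1.86%), with 1 member, Atp6v1b2, in each. At the same level, edgeR called 326 genes (1.57%), of which 161 were higher (0.773%) and 165 lower (0.793%) in FJDHF. The members' count at this level was 1 of 127 (0.787%), which is no more than the share of all genes. The member not tested was Cox7b2, a testis form of a complex IV subunit, which had 4 counts in MR3_4 and 0 counts elsewhere. Whether a group had fewer cells of a type or less RNA per cell cannot be told apart in bulk skin.

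Fold changes of the members were small and mostly below 0. Of 127 members, 87 (68.5%) had a fitted log2 fold change, FJDHF minus Model, below 0, beside 55.9% of all tested genes, and the median was -0.063 beside -0.032 for all genes. All 6 fibroblast markers were below 0 too (median -0.42, 1 at an unadjusted p under 0.05). They summed to 24824 to 47547 CPM in Model and 19073 to 31962 CPM in FJDHF. So were all 8 brown fat markers below 0 (median -0.42, 1 at that level, summed 237 to 397 and 151 to 327 CPM). The brown fat sum did not follow the marker Ucp1, since MXL_3 had the lowest Model sum (237 CPM) but the highest Ucp1 (30.3 CPM). Elovl3 alone gave 241 CPM of the sum of 358 CPM in MXL1. The part of either cell type in the members' folds was not tested. All 13 mitochondrial genes were below 0, with a median of -0.16 and a range of -0.30 (mt-Nd3) to -0.013 (mt-Co2). They share libraries and move together, so 13 such signs are not 13 separate observations. mt-Nd3 had a log2 fold change of -0.30 (SE 0.30, unadjusted p = 0.343, edgeR). mt-Co1 had -0.055 (SE 0.24, unadjusted p = 0.823, edgeR). Without MXL_3, the Model library of the highest mitochondrial share, the median of the 13 genes was 0.030 in place of -0.16.

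**Figure D2:**
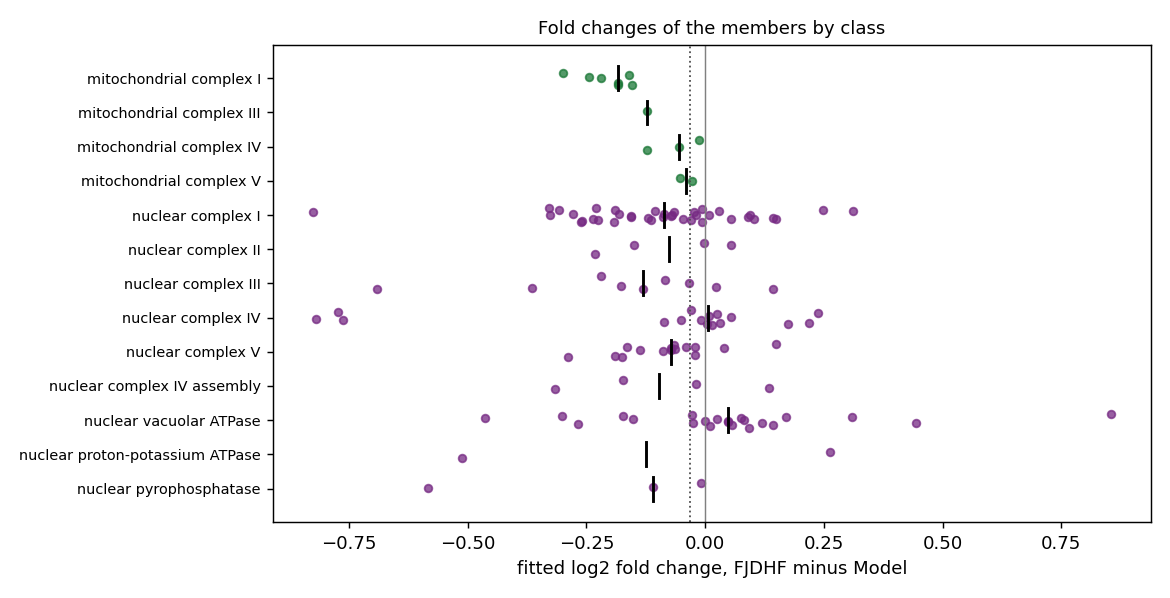
Each point is 1 of the 127 tested genes, placed by its fitted log2 fold change, FJDHF minus Model (x axis), and its class (y axis, with vertical scatter for visibility). Mitochondrial genes are green and nuclear genes purple, black bars are class medians, and the dotted line is the median of all tested genes (-0.032). Most points lie within 0.4 of 0, and all 13 mitochondrial genes lie to its left.

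Among the mitochondrial genes, the 7 of complex I had the lowest log2 fold changes (-0.30 to -0.16), and mt-Co2, mt-Atp6, mt-Atp8 and mt-Co1 lay nearest to 0 (-0.013 to -0.055). mt-Nd1, a core subunit near the ubiquinone site, had 3781 CPM in MXL1, 4169 in MXL12, 4177 in MXL3_4 and 5971 in MXL_3. In the FJDHF group it had 3911 in MR1, 3257 in MR3, 5066 in MR3_4, 3207 in MR4_5 and 4308 in MR5. MXL_3 and MR3_4 were again the high libraries, and the log2 fold change was -0.22 (SE 0.23, unadjusted p = 0.357, edgeR). mt-Co2, which carries the copper site that receives electrons, had 3399, 3580, 3634 and 4865 CPM in MXL1, MXL12, MXL3_4 and MXL_3. Its values were 4347, 3159, 5049, 2965 and 3941 CPM in MR1, MR3, MR3_4, MR4_5 and MR5, which span the whole Model range. Its log2 fold change was -0.013 (SE 0.23, unadjusted p = 0.956, edgeR). The copies followed their genes, from -0.31 for Gm28438, the copy of mt-Nd3, to -0.011 for Gm28661, the copy of mt-Co2.

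The 83 tested nuclear subunits had a median log2 fold change of -0.070, with 24 above and 59 below 0 and 0 at an unadjusted p under 0.05. By complex the medians were -0.087 for complex I (10 above and 29 below 0), -0.077 for complex II (1 and 3), -0.13 for complex III (2 and 7), 0.006 for complex IV (9 and 7 of 16 tested) and -0.073 for complex V (2 and 13). By these counts complex V was the most one-sided of the larger classes and complex IV had no side. The genes of a class share libraries, so their signs are not separate observations. Without MXL_3 the median of the 83 subunits was 0.055 in place of -0.070. MXL_3 held the highest CPM of 32 of the 83 subunits, MXL1 of 25 and MR3_4 of 15. MR5 held the lowest of 31, MXL1 of 19 and MXL12 of 17, so both groups had libraries at either end.

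Complex V supplied the most abundant nuclear members. Atp5b, the catalytic beta subunit, had the highest mean of all nuclear members (181 FPKM), followed by Atp5a1, the alpha subunit (164), and Atp5c1, the gamma subunit of the central stalk (92.0). Atp5b had 662 CPM in MXL1, 850 in MXL12, 942 in MXL3_4 and 969 in MXL_3, and 645 in MR1, 750 in MR3, 744 in MR3_4, 875 in MR4_5 and 822 in MR5. The FJDHF libraries lay within or just under the Model range, with means of 856 ± 139 (SD, n = 4) and 767 ± 87.5 (SD, n = 5) CPM. The log2 fold change was -0.19 (SE 0.17, unadjusted p = 0.292, edgeR). Atp5a1 had 370 CPM in MXL12 and 335 in MR5 but 541 to 705 CPM in the other 7 libraries, so a low library stood in each group. Atp5c1 (log2 fold change -0.17, SE 0.16) and Atp5h, a subunit of the peripheral stalk (-0.063, SE 0.17), differed from Atp5a1 in having no low value in MXL12 or MR5.

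Complex I is the largest complex, and the 39 nuclear genes placed in it by symbol were all tested. They include Ndufa4, now placed in complex IV, its relative Ndufa4l2, and Ndufb4c, which has no protein-coding transcript in the annotation used. The summed level of the 39 genes was 1023 CPM (MXL12) to 1521 CPM (MXL_3). Ndufb2, an accessory subunit of the membrane arm, had the second smallest p of all nuclear members. It had 8.32, 9.48, 9.71 and 9.56 CPM in MXL1, MXL12, MXL3_4 and MXL_3, and 6.47, 7.06, 6.20, 8.12 and 9.94 in MR1, MR3, MR3_4, MR4_5 and MR5. Of the FJDHF libraries 4 were below every Model library and MR5 was above all of them. The log2 fold change was -0.33 (SE 0.20, unadjusted p = 0.141, adjusted p = 1.00, edgeR), and the two-sided exact permutation p over 126 splits was 0.103. Without MR5 its unadjusted p was under 0.05. In the annotation this gene overlaps exons of 3 others, among them Braf on the opposite strand.

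Ndufa4l2, a hypoxia-induced relative of Ndufa4, had the lowest fitted log2 fold change of any member, -0.83 (SE 0.58, unadjusted p = 0.187, edgeR). Its level was 70.6 CPM in MXL1, 8.36 in MXL12, 14.1 in MXL3_4 and 21.3 in MXL_3, and 20.7, 22.3, 17.4, 14.8 and 5.54 CPM in MR1, MR3, MR3_4, MR4_5 and MR5. MXL1 was more than 3 times the next library and the groups overlapped. Without MXL1 the log2 fold change was 0.11 in place of -0.83. Ndufa4, named for complex I and now placed in complex IV, was at 53.3, 71.5, 81.7 and 84.3 CPM in the Model libraries MXL1, MXL12, MXL3_4 and MXL_3. In FJDHF it was at 109, 51.2, 103, 63.4 and 69.8 CPM in MR1, MR3, MR3_4, MR4_5 and MR5. The relatives did not follow one another, since MXL1 was the highest library for Ndufa4l2 and among the lowest for Ndufa4.

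Complexes II and III carried no gene at an unadjusted p under 0.05. The 4 genes of complex II, which also serves in the citrate cycle, summed to 377 CPM in MXL12 and 731 in MXL_3, with the other 7 libraries between 406 and 565. Complex III summed to 530 (MXL1) to 715 CPM (MXL_3). Uqcr11, a small subunit of complex III, had the largest difference there at a log2 fold change of -0.69 (SE 0.68, unadjusted p = 0.334, edgeR), which was 0.14 without MXL1. Uqcrc2, a core subunit, had -0.22 (SE 0.19, unadjusted p = 0.285, edgeR).

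Complex IV is built with different isoforms in different tissues. Cox8b, Cox7a1 and Cox6a2 are forms found in heart and skeletal muscle, though not always there alone, while Cox8a, Cox7a2 and Cox6a1 are found in most tissues. Cox8b had 2.24 CPM in MXL1, 0.224 in MXL12, 0.705 in MXL3_4 and 9.79 in MXL_3, and 1.46 in MR1, 3.35 in MR3, 3.97 in MR3_4, 0.521 in MR4_5 and 0.428 in MR5. Cox7a1 had 2.02, 0.526, 1.52 and 12.3 CPM in MXL1, MXL12, MXL3_4 and MXL_3, and 2.07, 2.61, 3.51, 1.73 and 1.93 CPM in MR1, MR3, MR3_4, MR4_5 and MR5. MXL_3 was the highest library and MXL12 the lowest for both, and the FJDHF libraries lay between them. Cox6a2 was highest in MXL1 (2.43 CPM) and MXL_3 (2.20 CPM), while MXL12 had a count of 0, which allows up to 0.0395 CPM.

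**Figure D3:**
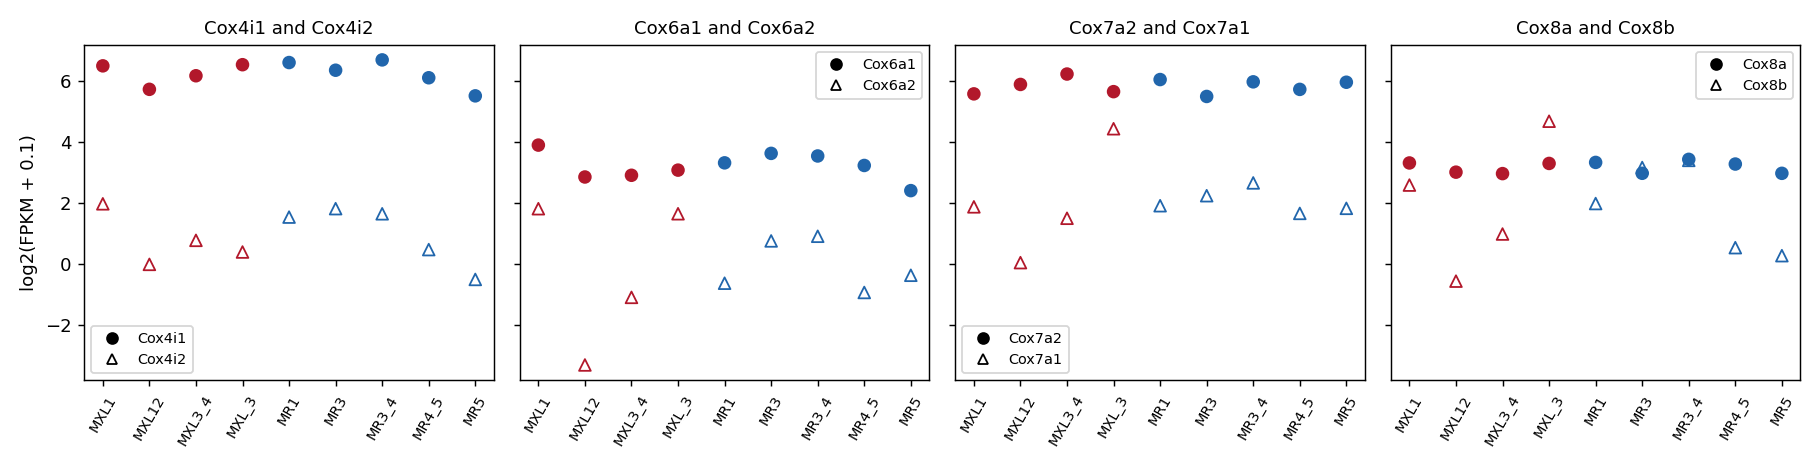
Levels of 4 isoform pairs of complex IV are given as log2(FPKM + 0.1) on the y axis for each library on the x axis, with Model in red and FJDHF in blue. Filled circles are the form of most tissues and open triangles the second form. The circles of each pair span less than its triangles, and in MXL_3 Cox8b lies above Cox8a.

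Per length, the balance of the Cox8 forms crossed over. The FPKM of Cox8b was 0.072 of that of Cox8a in MXL12 and 2.63 times it in MXL_3, with 0.600 in MXL1 and 0.243 in MXL3_4. In the FJDHF group the ratio was 0.386 in MR1, 1.14 in MR3, 0.976 in MR3_4, 0.140 in MR4_5 and 0.143 in MR5. Cox8a itself lay between 5.00 and 6.99 CPM in all 9 libraries, so the spread was on the side of Cox8b. Cox7a1 reached 0.429 of the FPKM of Cox7a2 in MXL_3 and lay between 0.016 and 0.103 elsewhere. The fitted log2 fold changes were -0.76 (Cox8b, SE 1.00), -0.82 (Cox7a1, SE 0.75) and -0.77 (Cox6a2, SE 1.05), none with an unadjusted p under 0.05 in edgeR. Without MXL_3 the signs of Cox8b (0.90) and Cox7a1 (0.80) turned and Cox6a2 was at -0.30. The groups overlapped for all 3.

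Skeletal muscle markers were highest in MXL_3 and lowest in MXL12, as were Cox8b and Cox7a1, whereas Cox6a2 was highest in MXL1. The 15 markers, all above 3 counts in at least 1 library, summed to 833 CPM in MXL12 and 22537 CPM in MXL_3 within the Model group, and to 2969 CPM (MR4_5) to 13526 CPM (MR3) within the FJDHF group. Their mean log2(CPM + 0.5) was 8.09 in MXL1, 5.36 in MXL12, 7.28 in MXL3_4 and 10.3 in MXL_3, and 7.90 in MR1, 9.35 in MR3, 9.30 in MR3_4, 7.02 in MR4_5 and 7.56 in MR5. The library of the highest muscle level was also that of the highest mitochondrial share. MR3 and MR3_4 had the next highest muscle levels, with mitochondrial shares of 5.62% and 8.61%. Ucp1, the brown fat uncoupling protein, had 30.3 CPM in MXL_3 and 0.467 to 1.11 CPM in the other 8 libraries. The part of muscle or brown fat in the mitochondrial share, or in the levels of Cox8b, Cox7a1 and Cox6a2, was not tested. With the muscle level as a covariate, edgeR gave Atp6v1b2 alone at an unadjusted p under 0.05, as without it.

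The promoters of the Cox8 pair are shown because these forms crossed over between libraries. They are RefSeq windows of 300 bases, from 250 before the start of the gene, of build GRCm38.p6, and capitals mark the E-box CAGCTG, a word bound by muscle transcription factors of the MyoD family among others.
Cox8b, chr7:140900397-140900696, minus strand: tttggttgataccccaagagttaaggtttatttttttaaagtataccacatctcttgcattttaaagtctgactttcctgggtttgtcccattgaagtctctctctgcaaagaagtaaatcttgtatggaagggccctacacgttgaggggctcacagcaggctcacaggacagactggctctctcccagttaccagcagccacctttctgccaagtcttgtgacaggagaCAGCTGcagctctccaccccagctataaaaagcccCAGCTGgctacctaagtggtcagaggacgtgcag
Cox8a, chr19:7217567-7217866, minus strand: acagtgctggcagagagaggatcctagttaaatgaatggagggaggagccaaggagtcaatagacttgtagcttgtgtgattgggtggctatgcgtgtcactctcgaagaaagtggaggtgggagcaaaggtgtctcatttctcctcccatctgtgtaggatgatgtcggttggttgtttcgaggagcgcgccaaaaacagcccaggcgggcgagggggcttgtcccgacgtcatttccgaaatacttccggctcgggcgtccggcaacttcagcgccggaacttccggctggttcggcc
The Cox8b window held 2 such words and the Cox8a window held none of the motifs searched. Of all 32851 RefSeq windows, 16.3% held the E-box, against 7% of the 100 windows of the 90 nuclear members that matched the table.

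Other words searched, on both strands, were those of 2 regulators of mitochondrial genes. The NRF1 word, whose letters are the capitals in the Ndufa11 window printed next, stood in 6% of the members' windows, namely in those of Atp5g2, Atp5k, Atp6v1e1, Cox6a1, Ndufa11 and Uqcrc1, and in 0.971% of all windows. The ERR word TCAAGGTCA stood in 2%, in Atp5g3 and Sdhd, and in 0.423% of all windows. The window of Ndufa11, the nuclear member that varied most, is shown with the NRF1 word in capitals.
Ndufa11, GRCm38.p6 chr17:56717512-56717811, plus strand: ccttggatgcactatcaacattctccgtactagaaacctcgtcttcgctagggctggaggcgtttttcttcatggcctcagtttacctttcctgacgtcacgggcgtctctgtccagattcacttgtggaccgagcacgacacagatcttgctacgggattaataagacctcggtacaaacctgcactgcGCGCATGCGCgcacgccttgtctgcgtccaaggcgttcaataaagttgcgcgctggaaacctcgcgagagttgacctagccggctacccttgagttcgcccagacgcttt
A match is a description of the sequence and not of a bound site.

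Other complex IV isoforms gave no such split. Cox4i1, the common form of subunit IV, had 126 ± 30.7 CPM (SD, n = 4) in Model and 130 ± 38.3 CPM (SD, n = 5) in FJDHF. Cox4i2, the form of lung and hypoxic cells, was at 0.506 (MR5) to 3.17 CPM (MXL1), and per length it never exceeded 0.042 of Cox4i1. Cox6b1 was among the 5 nuclear members of the highest mean FPKM (90.1) and had 47.4 CPM in MR5 and 68.6 to 79.8 CPM in the other FJDHF libraries. Its testis form Cox6b2 had 0.363 CPM in MR5 and 1.11 to 1.41 CPM in the other FJDHF libraries.

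The V-ATPase was the class with the only member at an unadjusted p under 0.05. Of its 22 genes 14 were above and 8 below 0, with a median log2 fold change of 0.047. Atp6v1b2, the B2 subunit of the soluble V1 part (chr8:69088646-69113711, plus strand), had 158 CPM in MXL1, 185 in MXL12, 168 in MXL3_4 and 156 in MXL_3. In the FJDHF group it had 209 CPM in MR1, 193 in MR3, 199 in MR3_4, 249 in MR4_5 and 203 in MR5. Every FJDHF library was above every Model library, as was so for 54 of all 20817 tested genes (0.259%) and for no other member. The means were 167 ± 13.5 (SD, n = 4) and 210 ± 22.5 CPM (SD, n = 5).

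The difference in Atp6v1b2 did not survive adjustment over all genes. Its log2 fold change was 0.31 (SE 0.13, unadjusted p = 0.0412, adjusted p = 1.00, edgeR). The two-sided exact permutation p was 0.00794, the smallest that 126 splits can give. Leaving out 1 library at a time left the fold between 0.25 and 0.36, and the unadjusted p stayed under 0.05 in 3 of 9 cases and reached up to 0.103 in the other 6, which were without MR1, MR3_4, MR4_5, MXL1, MXL3_4 or MXL_3. Markers of differentiated keratinocytes moved in the same direction, with summed levels of 2817 to 8714 CPM in Model and 7531 to 14280 CPM in FJDHF and all 8 markers above 0 on the log2 scale of fold changes, 5 of them at an unadjusted p under 0.05. All 8 macrophage markers were also above 0 (median 0.27, summed 517 to 1279 CPM in Model and 624 to 1407 CPM in FJDHF), with 0 at that level. The part of either cell type in the Atp6v1b2 value was not tested.

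**Figure D4:**
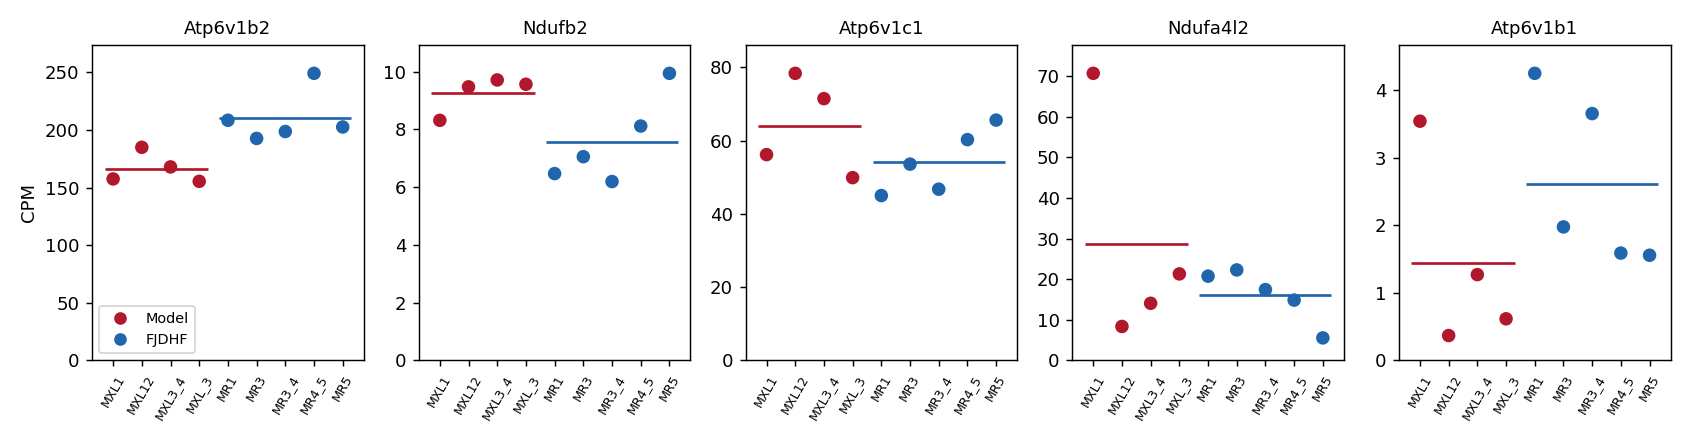
CPM of the 5 nuclear members of the smallest unadjusted p is given on the y axis for each library on the x axis, with Model in red, FJDHF in blue and lines at the group means. The groups are apart for Atp6v1b2, where the FJDHF libraries have 193 to 249 and the Model libraries 156 to 185 CPM, and they overlap for Ndufb2, Atp6v1c1, Ndufa4l2 and Atp6v1b1.

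The groups overlapped for the other V-ATPase genes. Atp6v1b1, the kidney and inner ear form of the B subunit, had a level per length of 0.075 to 0.917 FPKM, far under the 27.5 to 44.7 FPKM of Atp6v1b2. Its log2 fold change was 0.85 (SE 0.64, unadjusted p = 0.208, edgeR) with overlapping groups, and it was 1.76 without MXL1 and 0.53 without MXL12. Atp6v1c1, a C subunit that links the V1 and V0 parts, had 56.2, 78.4, 71.5 and 49.9 CPM in MXL1, MXL12, MXL3_4 and MXL_3. It had 45.0, 53.6, 46.8, 60.3 and 65.6 CPM in MR1, MR3, MR3_4, MR4_5 and MR5. The FJDHF libraries covered the lower part of the Model range and more, and the log2 fold change was -0.27 (SE 0.18, unadjusted p = 0.163, edgeR).

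Atp6v1c2, the C form of lung, kidney and epidermis, had 101, 22.3, 42.6 and 25.5 CPM in the Model libraries MXL1, MXL12, MXL3_4 and MXL_3, and 79.6, 62.0, 55.0, 95.5 and 36.0 CPM in MR1, MR3, MR3_4, MR4_5 and MR5. MXL1 was the highest of all and the other Model libraries were among the lowest, with a log2 fold change of 0.44 (SE 0.44, unadjusted p = 0.336, edgeR). It was 1.08 without MXL1, 0.21 without MXL12 and 0.24 without MXL_3. Without MXL1, Atp6v1c2, Atp6v1b1 and Uqcrc2 had an unadjusted p under 0.05, and Atp6v1b2 did not. Atp6v0d2, a form of osteoclasts and some macrophages, had 24.7 CPM in MXL_3 and 3.90 to 12.7 CPM in the other 8 libraries. Atp6v0d1, its common counterpart, was at 111 CPM in MXL1 and 113 in MR3 and at 69.3 to 80.5 CPM in the other 7.

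The spread between libraries was wider in the GC-rich nuclear members. For each gene the deviation of log2(CPM + 0.5) from its mean over the 9 libraries was taken, and 113 nuclear members were divided into 4 bins by the GC content of a transcript. In the bin of the highest GC content (55.3% to 60.4%, 28 genes), the median deviation was 0.77 in MXL1, -0.78 in MXL12, -0.30 in MXL3_4 and 0.31 in MXL_3. In the FJDHF libraries it was 0.17 in MR1, 0.54 in MR3, 0.26 in MR3_4, -0.032 in MR4_5 and -0.78 in MR5. High and low libraries stood in both groups. The range over libraries was 1.55 in this bin, 0.85 in the next lower one, 0.29 in the one after and 0.44 in the lowest bin (41.6% to 48.4%, 29 genes).

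**Figure D5:**
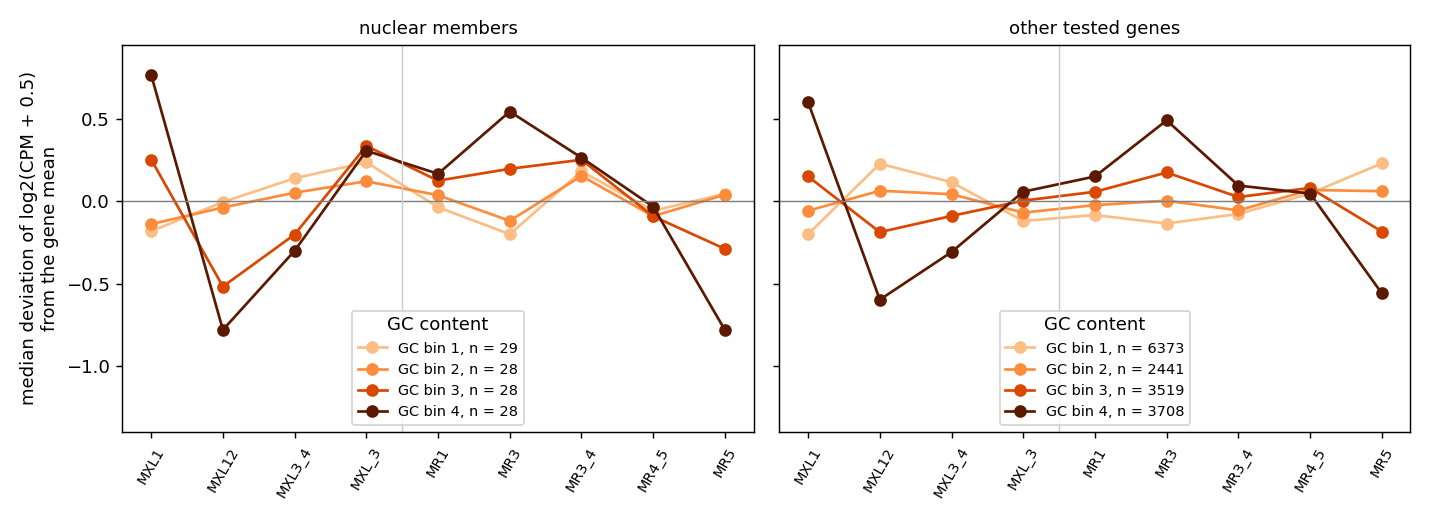
Median deviation of log2(CPM + 0.5) from each gene's mean over 9 libraries is given on the y axis for each library on the x axis (Model left and FJDHF right of the vertical line), with 1 line for each bin of GC content. The left panel holds 113 nuclear members and the right panel all other tested genes in the same GC bins. The darkest line, the highest GC content, spans 1.55 in the members and 1.20 in the other genes, with MXL12 and MR5 low and MXL1 and MR3 high in both.

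Among genes outside the pathway in the highest GC bin, MXL1 and MR3 were also the high libraries and MXL12 and MR5 the low ones, while the libraries between them stood in another order. The other tested genes had ranges of 1.20 in the highest bin (3708 genes) and 0.43 in the lowest (6373 genes). In the lowest bin MXL_3 was the highest library for the members (0.24) but below 0 for the other genes (-0.12). Across the 113 members the correlation of the deviation with GC content was 0.63 in MR3, 0.62 in MXL1, -0.50 in MXL3_4, -0.58 in MR5 and -0.59 in MXL12, which describes genes of 1 library that share its preparation and are not independent replicates. The members' correlation with log2 transcript length was strongest in MR3_4 (-0.62) and MR4_5 (0.45). Among the 16041 other tested genes it was only -0.22 in MR3_4 and 0.037 in MR4_5. The mitochondrial genes lie below the range of these bins, with a GC content of 31.9% to 41.1%.

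Most of the 5 nuclear members of the largest spread were high in MXL1 and MR3 and low in MXL12 and MR5. Ndufa11, an accessory subunit of complex I with a GC content of 58.2%, had 23.4 CPM in MXL1, 1.09 in MXL12, 3.12 in MXL3_4 and 11.7 in MXL_3. In FJDHF it had 8.90 in MR1, 19.7 in MR3, 11.3 in MR3_4, 5.54 in MR4_5 and 1.01 in MR5. Its group means were close, 9.81 ± 10.1 (SD, n = 4) and 9.29 ± 6.98 CPM (SD, n = 5). Atp6v0c, the proteolipid of the V-ATPase ring, spanned 9.00 (MXL12) to 108 CPM (MXL1), and Atp5d, the delta subunit of ATP synthase, 3.34 (MR5) to 34.2 CPM (MXL1). Both were low in MXL12 and MR5 and high in MXL1 and MR3. Ndufa4l2 and Cox8b completed the 5, and Cox8b differed in being highest in MXL_3.

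A smooth of each library's deviation on transcript length and GC content was then removed. In the bin of the highest GC content the median SD over libraries went from 0.681 to 0.384 and became smaller for 23 of 28 genes, and in the lowest bin it went from 0.273 to 0.235. Over the 114 nuclear members with a known length and GC content the median SD was 0.310 before and after, though it became smaller for 79 of them. For the 13 mitochondrial genes the median SD went from 0.272 to 0.310, while 7 of them had a smaller SD. With this correction, 3 of 126 members (2.38%) had an unadjusted p under 0.05, beside 321 of 16167 genes (1.99%). They were Ndufa4l2 (log2 fold change -0.77, SE 0.26, unadjusted p = 0.0137), Uqcr11 (-0.89, SE 0.37, unadjusted p = 0.0386) and Atp6v1b2 (0.27, SE 0.10, unadjusted p = 0.0239), and each had an adjusted p of 1.00 in edgeR. This correction was chosen after the data were seen.

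Genes that serve the same organelle were counted in the same way, and 0 of them passed the adjusted criterion. Of 33 tested assembly factors of the complexes, 9 were above and 24 below 0, with a median log2 fold change of -0.097. Of 18 regulators of mitochondrial biogenesis, 7 were above and 11 below 0 (median -0.053). Tfam, which packages and transcribes mitochondrial DNA, had 34.1 to 45.3 CPM in the FJDHF libraries and 34.4 to 56.7 CPM in the Model libraries, with a log2 fold change of -0.24 (SE 0.18, unadjusted p = 0.211, edgeR). The coactivator Ppargc1a had 16.8 CPM in MXL_3 and 6.50 to 9.58 CPM elsewhere.

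The citrate cycle list had 2 above and 13 below 0 of 15 genes (median -0.14), and 0 at an unadjusted p under 0.05. Cs, the citrate synthase often used as a measure of mitochondrial content, had 390 to 506 CPM in Model and 367 to 471 CPM in FJDHF. The 17 glycolysis genes stood at a median of 0.031, with 9 above and 8 below 0. Of 10 uncoupling proteins and carriers 8 were below 0 (median -0.063), and Ucp1 was at an unadjusted p of 0.00998 (edgeR, log2 fold change -3.52, SE 1.12), with the Model level carried by MXL_3. Slc25a4, the ADP and ATP carrier of muscle, had 302 CPM in MXL_3 and 80.8 to 174 CPM in the other 8 libraries.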

How the data were processed

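The authors deposited whole-number read counts per gene without normalization, and a table of FPKM values with gene positions and KEGG annotation. The submitters' processing notes name HISAT, StringTie, DESeq2 and build mm10; versions, and whether strand was used in counting, are not given in the sources used here. The 9 libraries were made from polyadenylated RNA with strand marking and had 74648669 to 79474215 counts each. The FPKM table also holds 9 columns of counts, which were not used. No 2 libraries agreed within sampling noise.

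Counts were fitted over all genes with edgeR 4.0.16 in R 4.3.3 (filterByExpr, TMM, quasi-likelihood test, Benjamini-Hochberg adjustment, no covariate). DESeq2 1.42.0 and limma 3.58.1 on log2(FPKM + 1) were alternatives. CPM used total counts, with a pseudocount of 0.5 on the log2 scale. A floor of 3 counts covers counting error only. Exact permutation tests enumerated all 126 assignments of the libraries to groups of 4 and 5. A mean over muscle markers served as a covariate in 1 alternative. Medians over members carry no test. Named genes were the mitochondrial genes, isoform pairs, and the 5 nuclear members each of smallest p, highest mean FPKM and largest SD; others, such as Uqcr11, Uqcrc2, Ucp1 and Tfam, were named after their values were seen. Members and lists were chosen with earlier results of these data known. Positions matched GENCODE M21 (GRCm38) in 111 of 128 members, and copies were sought there by shared 50-base words. The length and GC correction and the search for copies were added after the data were seen. Steps were tested on simulated data.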

Additional observations from a re-analysis of the deposited data

Results flagged for a closer look

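Within each group, a library was looked for whose gap to the nearest other library was a large part of the group's range (Dixon's ratio, 95% level). Of 115 comparisons 12 passed, where chance gives about 1 in 20, or 5.75. They were spread over MR3_4 (3), MR5 (3), MR3 (2), MXL1 (2) and MXL_3 (2).

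High values stood in MXL_3 for mt-Nd5 (ratio 0.940, 446496 counts against 287474 to 295658) and Atp6v0d2 (0.854, 1841 counts against 351 to 436). MR3_4 was high for mt-Nd5 (0.818, 379699 counts against 250229 to 272293) and mt-Co1 (0.741, 2384247 counts against 1572313 to 1748170). Cox7b2 gave a ratio of 1 there, from 4 counts against 0. Atp6v0d1 was high in MXL1 (0.935, 8615 counts against 5172 to 5678) and in MR3 (0.784, 8781 counts against 5645 to 6181).

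Low values stood in MR5 for Atp5a1 (0.778, 25770 counts against 41224 to 48031), Cox6b1 (0.710, 3648 counts against 5266 to 6002) and Cox6b2 (0.783, 28 counts against 85 to 106). Atp6v1g2 was low in MR3 (0.716, 149 counts against 213 to 240) and Ndufb2 in MXL1 (0.840, 643 counts against 714 to 772).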

How the results depend on the processing

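The count of 1 member at an unadjusted p under 0.05 was kept under all settings that use every library, except that it was 3 with the length and GC correction; it ran from 0 to 3 when 1 library was left out. It was 0 without MR1, MR3_4, MR4_5, MXL3_4 or MXL_3, 2 without MR5 and 3 without MXL1. The median log2 fold change of the mitochondrial genes ran from -0.28 to 0.030 over the left-out libraries and from -0.22 to -0.064 over the other settings, and that of the nuclear subunits from -0.16 to 0.055 and from -0.22 to -0.0055. The difference in log2 ratio ran from -0.084 to 0.037 and from -0.038 to 0.042. The pooled SDs were 0.292, 0.333 and 0.179, but leaving out 1 library can hardly move a group mean by so much. Moves under 1 pooled SD therefore do not show stability, and over the left-out libraries each of these values took both signs. Of 968 values of 51 named genes over the settings, 826 kept their sign and 142 did not, and the smallest adjusted p was 0.857.

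Column numbers shared by the groups give 3 pairs. The deviations of same-numbered libraries correlated at 0.225, 0.116 and -0.223, so the numbers were not taken as pairs. With a replicate block over these 6 libraries the count stayed at 1, Atp6v1b1 in place of Atp6v1b2, and the medians were -0.064 and -0.0055 and the ratio difference 0.042. With the block and the length and GC correction together the count was 1, Ndufa4l2, and the medians were -0.20 and -0.22.

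Cox7b2 had a count of 0 in every library but MR3_4, and Cox6a2 in MXL12. The p-values measure the spread between these libraries only.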
